A study of Rattus norvegicus with 31 samples.

Results

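Strains of the HXB and BXH recombinant inbred rat families were divided by the expression level of Cbln1 in the left ventricle of the heart. The strains were chosen by their own value for the assembled Cbln1 gene, high where it exceeded 5.4 on the log2 scale and low otherwise, which gave 7 high and 14 low strains among 21 strains with 1 library each, out of 31 libraries in the series. These families descend from reciprocal crosses of the spontaneously hypertensive rat, SHR/OlaIpcv, with the BN-Lx/Cub strain, so that each strain is homozygous for a mosaic of the 2 progenitor genomes. The remaining libraries came from SHR (6 libraries, of which the 4 of sequencing batch 1, numbered as separate replicates, were used here) and from BN-Lx (4 libraries of the same batch). All rats were untreated males, and total RNA depleted of ribosomal RNA was sequenced. With 1 animal per recombinant inbred strain, a difference between strains cannot be told apart from a difference between animals, and the groups were formed on an expression level and not on a genotype.

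Cbln1 encodes cerebellin 1, a secreted protein with a C1q domain. In the cerebellum it is released by granule cells and bridges neurexins on the presynaptic side to delta glutamate receptors on the postsynaptic side, holding the synapse together. It belongs to a family with Cbln2, Cbln3 and Cbln4, and its role in the heart is less well described than that in the brain.

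In the files, Cbln1 is the assembled gene PRN7.71G0236653, linked to Ensembl gene ENSRNOG00000000010, and lies in the rn7 genome build on chromosome 19 from 19608763 to 19612572 on the plus strand. Its 3 exons cover 264, 120 and 2060 bases. The values are log2 expression levels whose transformation is not given in the sources used here, without reads or counts, so the depth behind each value is unknown, and neither intervals nor detection limits for single libraries can be given.

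The values that chose the strains ran without a break across the limit. In the high group, the lowest value was 5.69 in HXB1, the median 6.54 in HXB21 and the highest 7.85 in BXH9. In the low group, the lowest was 3.10 in HXB7, the median 4.22 and the highest 5.37 in HXB25. The strains nearest the limit were HXB1 (5.69) above it and HXB25 (5.37) and BXH13 (5.31) below it. The gap at the limit, 0.32, was smaller than 7 of the other gaps among the 20 between neighbouring strains, and the widest gap, 0.92, lay inside the high group between BXH6 (7.84) and HXB31 (6.92). As a description, since the rule fixed it, the group means of the assembled gene differed by 2.56 on the log2 scale, or 5.90-fold. This size depended on the quantification. The means lay closer together for the RefSeq gene (6.64 in high and 4.75 in low strains) and farther apart for the assembled transcript (6.90 and 3.85).

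Other quantifications gave a similar picture, and the RefSeq gene placed the 7 high strains in the same order. The RefSeq gene Cbln1 ranged from 5.82 to 7.50 in high strains (median 6.58) and from 4.29 to 5.39 in low strains (median 4.72). The Ensembl gene of an earlier data version ranged from 5.70 to 7.40 in high strains (median 6.41) and from 4.3 to 5.39 in low strains (median 4.74). The single assembled transcript of the gene ranged from 5.66 to 8.16 in high strains and from 2.24 to 5.35 in low strains. In none of these 3 did the groups overlap, and the low strains were spread more widely at the level of the assembled transcript than at that of the RefSeq gene. All 3 measure the same gene in the libraries that chose the strains, so the lack of overlap is no independent check of the split.

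**Figure D1:**
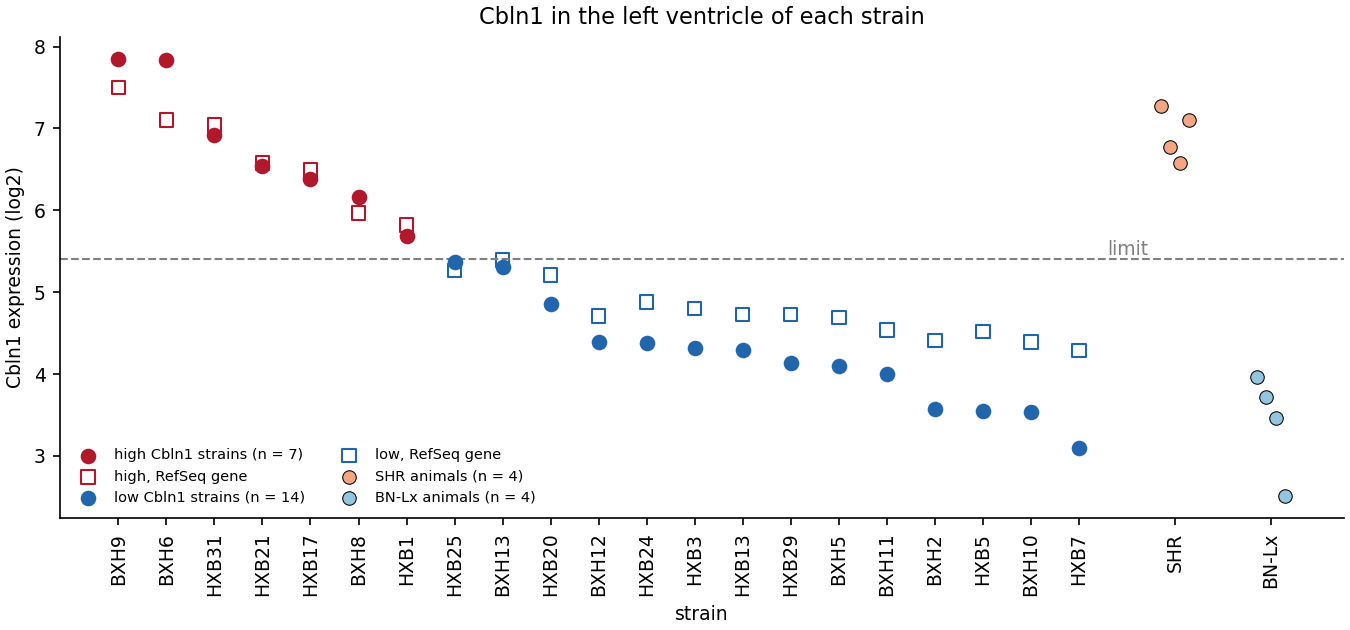
Cbln1 expression (log2) in each strain, 1 library per strain, ordered by the assembled gene (filled circles), with the RefSeq gene as open squares and the 4 SHR and 4 BN-Lx animals at the right. The dashed line is the limit of 5.4; the 7 high strains lie between 5.69 and 7.85 and the 14 low strains between 3.10 and 5.37 in the assembled gene.

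The high group held 4 HXB and 3 BXH strains, and the low group 8 HXB and 6 BXH strains, so neither family was tied to a group. Of the high strains, 1 was sequenced in batch 2 and 6 in batch 3, against 5 and 9 of the low strains, and batch was a term of the model below.

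The progenitors, which took no part in choosing the strains, differed in Cbln1 by more than the spread between animals. SHR animals had values of 7.28, 6.78, 6.58 and 7.1, against 3.96, 3.72, 3.46 and 2.51 in BN-Lx animals. Every SHR animal therefore exceeded every BN-Lx animal, with means of 6.94 ± 0.31 in SHR and 3.41 ± 0.64 in BN-Lx (SD, n = 4 each). The log2 difference was 3.52 ± 0.30 (SE), with an adjusted p of 7.32e-06 by limma over all assembled genes, and an exact two-sided permutation test of the 8 values gave p = 0.0286, the smallest it can give. Of the 21 recombinant inbred strains, 3 were at or above the lowest SHR value and 4 at or below the highest BN-Lx value, so most strains lay between the progenitors. The progenitors were sequenced in another batch, so their levels are set beside those of the strains only as values in the same table.

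The strains were then compared gene by gene with limma, with sequencing batch as a covariate and Benjamini-Hochberg adjustment over all genes of a table. Cbln1 itself gets no test. Genes on chromosome 19 within 20 Mb of Cbln1 were separated from genes elsewhere, because neighbouring genes are inherited together in recombinant inbred strains. Among 19099 RefSeq genes, 1 passed an adjusted p of 0.05, which is 0.00524% of them, and it lay within the window, where 342 genes were tested (0.292% called). The assembled genes also include unnamed transcripts found in these libraries, and 5 of 46062 passed (0.0109%), of which 4 lay among the 780 genes within the window (0.513%) and 1 among 45282 genes elsewhere (0.00221%). Of the Ensembl genes of an earlier data version, 2 of 17300 passed (0.0116%), both among the 305 within the window (0.656%), namely LOC291863 and ENSRNOG00000070376, described below.

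The RefSeq gene called was LOC291863, which RefSeq (GRCr8) now lists under the symbol Ces1dl1, a carboxylesterase 1D-like gene. Carboxylesterases hydrolyse esters of lipids and drugs. It spans positions 22560685 to 22592355 of chromosome 19 (rn7, plus strand), 2.95 Mb beyond Cbln1. Its RefSeq values ran from 3.74 to 3.90 in high strains (median 3.82) and from 3.98 to 5.15 in low strains (median 4.57), so that all 7 high strains lay below all 14 low strains. No other RefSeq gene separated the groups in this way, 1 of 19099 or 0.00524%, and it was also the only one of the earlier Ensembl genes to do so, 1 of 17300 (0.00578%) and 1 of 305 within the window (0.328%). The log2 difference was -0.76 ± 0.11 (SE), a level 1.69-fold lower in high strains, with an adjusted p of 0.00375 by limma. In the assembled table the same locus (PRN7.71G0237022) had values from 2.74 to 3.43 in high strains (median 2.96) and from 3.35 to 5.12 in low strains (median 4.53). There the groups met at a single low strain, HXB25 with 3.35, and the log2 difference was -1.47 ± 0.20 (adjusted p = 0.00268, limma). With the Cbln1 value as a continuous predictor in place of the 2 groups, neither table's call held (adjusted p = 0.143 for the RefSeq gene and 0.0766 for the assembled gene, limma). SHR animals had 2.79, 3.14, 3.58 and 2.14, against 4.71, 4.11, 4.64 and 5.04 in BN-Lx animals, the same direction as high against low strains (log2 difference -1.71 ± 0.34, adjusted p = 0.00563, limma). Further carboxylesterase genes, such as Ces1f, lie next to it, and how the counting shared reads among similar copies was not given, so its level is uncertain to that extent.

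The assembled gene nearest to Cbln1 that was called is PRN7.71G0236652, which starts 561 bases before Cbln1 and runs away from it on the minus strand, from 19608202 down to 19551817. It has no gene name in the annotation, is linked to Ensembl gene ENSRNOG00000070376 and has 6 exons. Its values ran from 3.52 to 5.52 in high strains (median 5.0) and from 1.92 to 4.48 in low strains (median 2.55). It was higher in the high strains by 2.1 ± 0.31 on the log2 scale, or 4.28-fold (adjusted p = 0.00607, limma). The groups overlapped because of the same strain, HXB25, whose 4.48 exceeded the values of HXB17 (4.24), BXH8 (3.89) and HXB1 (3.52), while no other low strain exceeded 3.02. SHR animals had 5.16, 5.15, 4.67 and 5.08, against 1.98, 1.83, 1.65 and 2.07 in BN-Lx animals, a log2 difference of 3.13 ± 0.27 (adjusted p = 8.66e-06, limma). Without BXH6 the comparison of high with low strains no longer passed, with a log2 difference of 1.96 and an adjusted p of 0.0966.

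Within the high group, as a description since Cbln1 chose the strains, the divergent transcript was highest in BXH6 (5.52), BXH9 (5.30) and HXB31 (5.06), the 3 strains highest in Cbln1, and lowest in HXB17, BXH8 and HXB1, the 3 lowest in Cbln1. The rank correlation with Cbln1 was 0.96 over these 7 strains and 0.30 over the 14 low strains. The linear correlation was 0.92 over the 7 high strains and 0.55 over the 14 low strains. Of 10 such relations computed for the called assembled genes within the groups, the one in the high group here was the largest.

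PRN7.71G0237067 showed the widest separation of the strains. It is an unnamed gene of 2 exons on the minus strand, from 22748488 to 22751944 on chromosome 19, 3.14 Mb beyond Cbln1. High strains ran from 6.26 to 7.44 (median 7.21) and low strains from 3.60 to 5.12 (median 4.21), so the groups did not overlap, which held for 3 of 46062 assembled genes (0.00651%) and 2 of 780 within the window (0.256%). The log2 difference was 2.84 ± 0.21, or 7.15-fold higher in high strains, with an adjusted p of 6.38e-08 by limma. SHR animals had 7.1, 6.69, 6.76 and 7.13, against 4.05, 3.39, 3.97 and 3.8 in BN-Lx animals. High strains thus lay around the SHR values and low strains around or somewhat above those of BN-Lx, and the progenitors differed by 3.12 ± 0.21 (adjusted p = 9.09e-07, limma). The gene lies within the span of the assembled Ces1f gene on the same strand without sharing exon bases with it. The Ces1f gene itself had a log2 difference of -0.59 and did not pass.

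PRN7.71G0236850 moved the other way. This unnamed gene on the minus strand, from 21687161 to 21693238 and 2.07 Mb beyond Cbln1, has 3 transcripts. High strains ran from 5.10 to 5.56 (median 5.39) and low strains from 5.97 to 7.13 (median 6.65), again without overlap. It was lower in high strains by a log2 difference of -1.35 ± 0.13, or 2.54-fold (adjusted p = 1.39e-05, limma). SHR animals had 5.54, 5.26, 5.67 and 5.72, against 6.88, 6.53, 6.66 and 6.83 in BN-Lx animals, a difference of -1.18 ± 0.16 in the same direction (adjusted p = 0.00043, limma). It lies on the opposite strand within the long assembled spans named Mylk3, a cardiac myosin light chain kinase, and shares exon bases with 1 further unnamed gene of its own strand, PRN7.71G0236851 (log2 difference -0.75, not called).

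**Figure D2:**
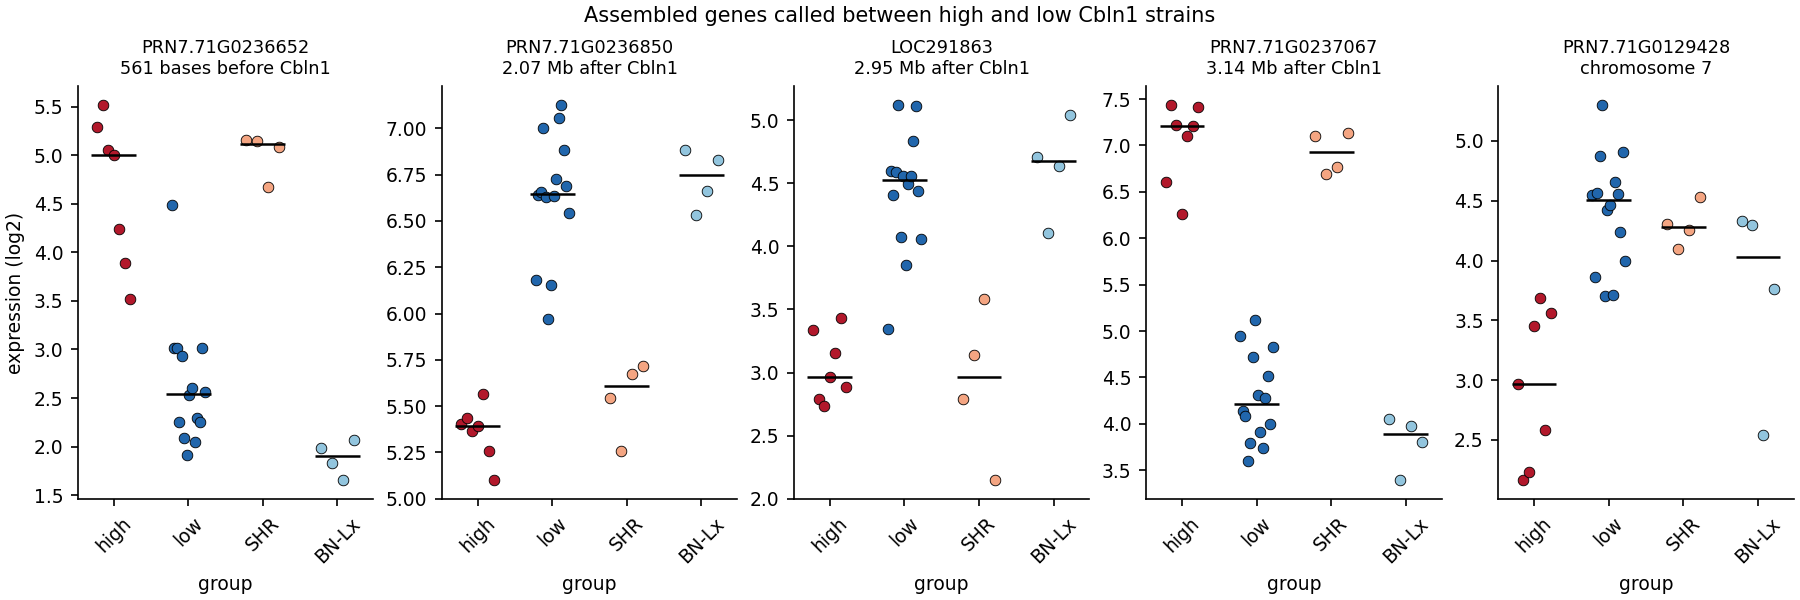
Expression (log2) of the 5 assembled genes called between high and low Cbln1 strains, each point 1 library and each bar the group median, with panels in the order of position on chromosome 19 and the gene of chromosome 7 last. In the 4 panels of chromosome 19 the high strains lie on the side of the SHR animals and most low strains on that of the BN-Lx animals. Some high strains still lie below every SHR animal, namely HXB17 (4.24), BXH8 (3.89) and HXB1 (3.52) at PRN7.71G0236652, and BXH9 (6.60) and HXB21 (6.26) at PRN7.71G0237067. On chromosome 7 the SHR animals (4.09 to 4.53) sit with the low strains.

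The effects of these 4 chromosome 19 genes were present in both families. PRN7.71G0237067 was higher in high strains by 2.46 in HXB and by 3.14 in BXH, PRN7.71G0236652 by 1.73 in HXB and 2.37 in BXH. PRN7.71G0236850 differed by -1.10 in HXB and -1.51 in BXH, and LOC291863 by -1.38 in HXB and -1.40 in BXH in the assembled table. The difference between the families did not pass for any of the called genes (adjusted p of the limma interaction of 0.882 or more). Within batch 3 alone all 4 were called, with log2 differences of 2.82, 1.96, -1.45 and -1.49 in the order PRN7.71G0237067, PRN7.71G0236652, PRN7.71G0236850 and LOC291863. Batch 2 held 1 high strain, BXH6, and gives no test of its own.

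Of the RefSeq genes with an rn7 position, the 10 nearest to Cbln1 did not pass. On the side of lower coordinates, the 5 nearest RefSeq genes with an rn7 position were LOC102551322, listed by RefSeq as a long noncoding RNA, then Zfp423, a zinc finger transcription factor, Cnep1r1, a partner of a nuclear envelope phosphatase, Heatr3 and Tent4b, a poly(A) polymerase. Their log2 differences ran from -0.098 (Zfp423) to 0.074 (Cnep1r1). On the other side lay N4bp1, the ubiquitin ligase Siah1, the peroxisomal protease Lonp2, Phkb, a subunit of phosphorylase kinase, and Itfg1, with differences from 0.0050 (Phkb) to 0.10 (Lonp2). The adjusted p was 1.00 for each of the 10. Lonp2, 0.79 Mb from Cbln1, was the only one with an unadjusted p under 0.05 (0.0447), at 11.48 to 11.73 in high strains (median 11.53) and 11.38 to 11.65 in low strains (median 11.47).

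Farther out, Get3, which encodes the ATPase that delivers tail-anchored proteins to the endoplasmic reticulum, came next by p value on chromosome 19 and is named after its values were seen. It lies 3.52 Mb from Cbln1. Its RefSeq values ran from 10.58 to 11.23 in high strains (median 10.93) and from 11.10 to 12.08 in low strains (median 11.44), a log2 difference of -0.60 ± 0.11 with an adjusted p of 0.103 by limma. It passed with a family term beside batch (adjusted p = 0.00278). Its assembled gene had a log2 difference of -0.61 between high and low strains and was far from passing. That assembled gene did differ between the progenitors, at 10.33 to 10.73 in SHR and 11.16 to 11.54 in BN-Lx (log2 difference -0.86 ± 0.10, adjusted p = 0.000146, limma).

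Counts by distance described where small p values lay. Unadjusted p values under 0.05 were found in 2.94% of all RefSeq genes tested. They made up 3 of 14 genes between 2 and 3 Mb from Cbln1, 11 of 73 between 3 and 5 Mb (15.1%) and 8 of 76 between 5 and 10 Mb (10.5%). Between 10 and 20 Mb they were 3 of 152 (1.97%), on the rest of chromosome 19 3 of 170 (1.76%), and on other chromosomes or unplaced 533 of 18587 (2.87%). Within 2 Mb only 1 of 27 genes, Lonp2, had such a value. In the assembled table the corresponding counts were 6 of 37 between 2 and 3 Mb, 12 of 138 between 3 and 5 Mb, 13 of 171 between 5 and 10 Mb and 9 of 370 between 10 and 20 Mb, against 1066 of 44858 genes off the chromosome (2.38%).

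**Figure D3:**
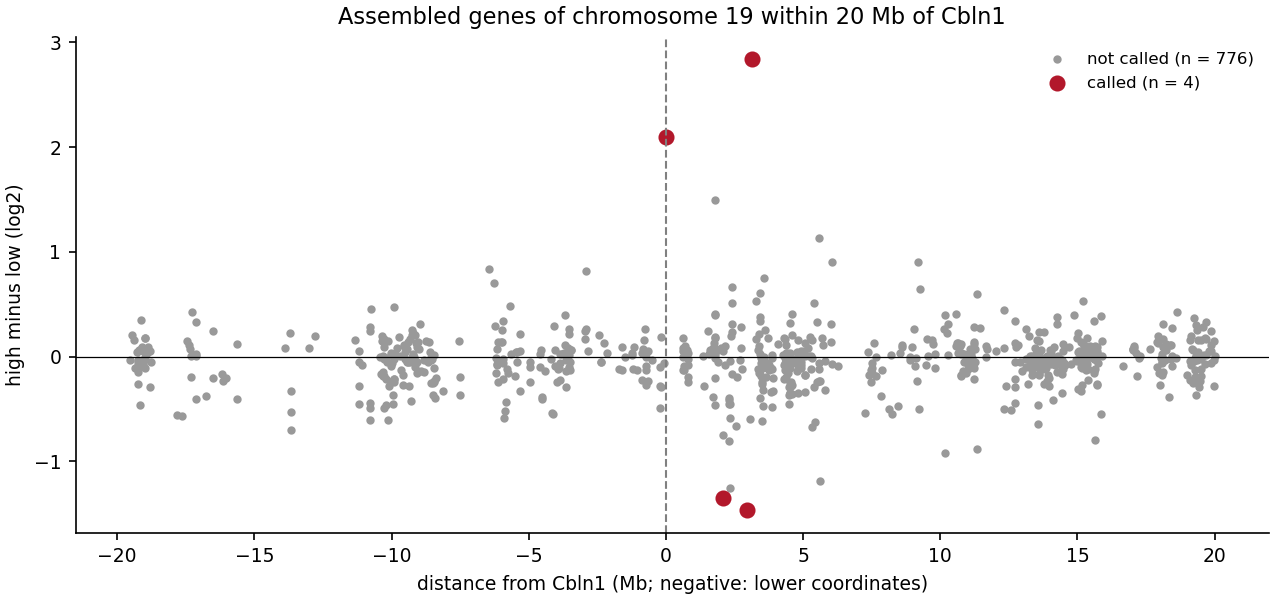
Log2 difference, high minus low Cbln1 strains, of each of the 780 assembled genes tested on chromosome 19 within 20 Mb, against the distance from Cbln1 (dashed line). The 4 genes called (red) lie at Cbln1 itself and between 2.07 and 3.14 Mb beyond it, 2 above zero and 2 below.

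Between the progenitors, 14.3% of the 46063 assembled genes were called, and 14% of the 781 within the window (109 genes, Cbln1 included), so the window was not richer in such genes than the whole table. To describe how far along the chromosome the strains kept the side of their Cbln1 group, the assembled genes of chromosome 19 were taken that were called between SHR and BN-Lx with a log2 difference of at least 1 and no overlap between the animals, a choice made after the data had been seen. There were 68 besides Cbln1. For each, a high strain was on the side of its group when its value lay nearer to the SHR mean, and a low strain when it lay nearer to the BN-Lx mean. This uses expression only, and genotypes were not analysed here. The progenitors were sequenced in batch 1 and the strains in batches 2 and 3. No batch term enters this comparison, so a shift between batches could put a strain near the middle on the other side.

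HXB25 (5.37) and BXH13 (5.31), counted as low, lay just above the middle of the progenitor means of Cbln1 (5.17) and so nearer to SHR. At Cbln1 itself 19 of 21 strains were thus on the side of their group. At PRN7.71G0236652 20 strains were, with HXB25 as the exception. At PRN7.71G0236850 20 were, with HXB3 as the exception, at LOC291863 20, with HXB25 as the exception, and at PRN7.71G0237067 all 21. HXB25 thus lay nearer to SHR at Cbln1, at the divergent transcript and at LOC291863, and nearer to BN-Lx at PRN7.71G0236850 (6.18) and PRN7.71G0237067 (4.94). BXH13 lay nearer to BN-Lx at all 4 of these genes, with 3.01 at the divergent transcript and 4.14 at PRN7.71G0237067. The genes that were not called had between 8 and 17 strains on the side of their group. This contrast was largely set by the choice of genes, since a call meant separating the same groups and Cbln1 itself formed them. By distance, the median was 14 of 21 for the 16 genes between 2 and 3.5 Mb, 15 for 9 genes between 5 and 10 Mb, and 12 for 17 genes between 10 and 20 Mb and for 22 genes beyond. The 16 genes between 2 and 3.5 Mb ranged widely, from 9 to 21 strains on the side of their group, so that genes at nearly the same distance as the called ones did not separate the strains.

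**Figure D4:**
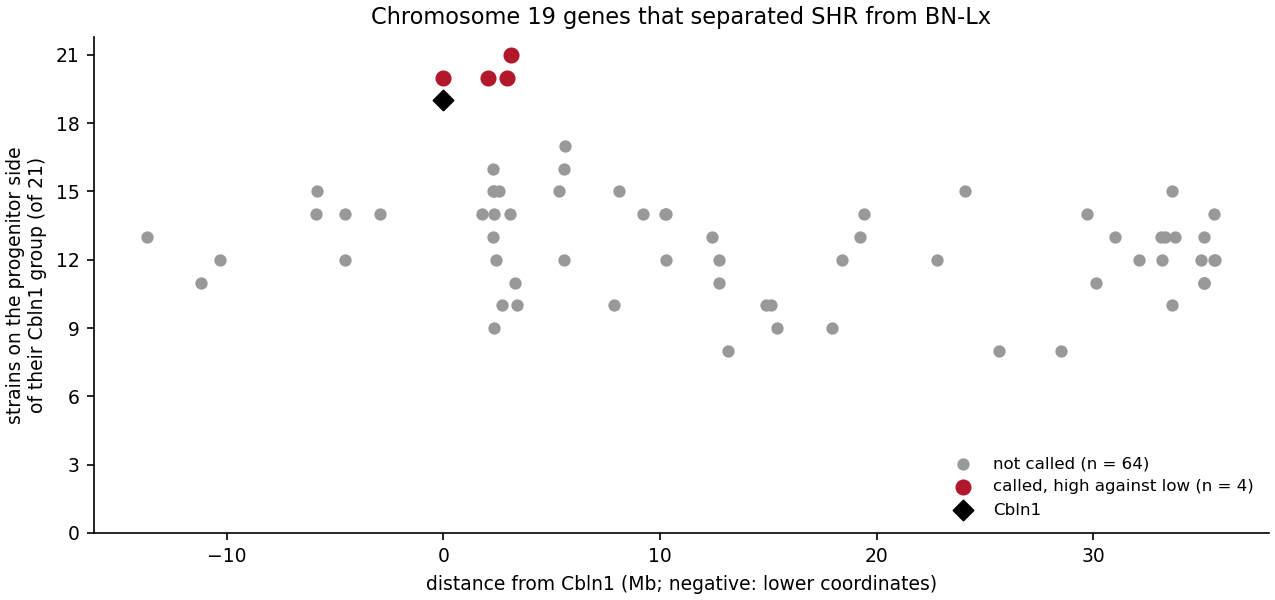
Number of the 21 strains whose value lay on the progenitor side of their Cbln1 group (SHR for high, BN-Lx for low), for each chromosome 19 assembled gene that separated SHR from BN-Lx, against the distance from Cbln1. The 4 called genes reach 20 or 21 strains, Cbln1 19, and the genes not called between 8 and 17. A call meant separating the same groups, which Cbln1 itself formed, so this contrast was largely set by the choice of genes.

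Away from this window the groups hardly differed. None of 18757 RefSeq genes elsewhere passed with limma, while 536 (2.86%) had an unadjusted p under 0.05. The smallest adjusted p there was 0.0815, for LOC120098554, which has no position in the annotations used and a low level, from 1.74 to 1.98 in high strains (median 1.80) and from 1.52 to 1.76 in low strains (median 1.60). It passed without BXH13 (adjusted p = 0.0163) and without the batch term (0.0376). Hrob, a factor of DNA repair on chromosome 10, was next, at 3.77 to 4.25 in high strains and 4.14 to 4.57 in low strains (log2 difference -0.36 ± 0.07, adjusted p = 0.293). Both are named after their values were seen.

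The assembled gene called elsewhere was PRN7.71G0129428, an unnamed gene of 2 exons on the minus strand of chromosome 7, from 93042291 to 93056233 (rn7). It ran from 2.16 to 3.68 in high strains (median 2.97) and from 3.70 to 5.30 in low strains (median 4.51). The groups did not overlap but nearly touched, at HXB17 in the high and HXB3 in the low group. The log2 difference was -1.55 ± 0.24, or 2.93-fold lower in high strains (adjusted p = 0.0136, limma). The log2 difference stayed between -1.66 and -1.42 when single strains were left out and was -1.42 within batch 3 alone, while the adjusted p by limma no longer passed without BXH6 (0.208), without BXH8 (0.058), without HXB31 (0.0568), within batch 3 alone (0.30) or with the Cbln1 value as a continuous predictor (0.138). Its progenitor values, 4.31, 4.09, 4.26 and 4.53 in SHR animals and 4.33, 4.3, 2.54 and 3.76 in BN-Lx animals, overlapped and did not differ by the test (log2 difference 0.56 ± 0.37, adjusted p = 0.346, limma), and none of the SHR animals was as low as the high strains. Exons of 3 other assembled genes overlap it, 1 of them on the opposite strand (log2 difference 0.17) and the others on its own strand (0.25 and -0.15), and none of them was called.

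No other measured member of the cerebellin family passed the test. Cbln2 ran in the RefSeq table from 1.87 to 2.23 in high strains (median 2.02) and from 1.86 to 2.23 in low strains (median 2.0), and Cbln3 ran from 3.15 to 3.81 in high strains (median 3.35) and from 2.91 to 3.88 in low strains (median 3.14). Their log2 differences were 0.021 ± 0.054 and 0.15 ± 0.13, with an adjusted p of 1.00 for both. Cbln4 was not among the RefSeq genes measured.

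None of the cerebellin receptors described here passed the test. Of 7 receptors and partners of cerebellins listed, 5 were measured and 0 were called with limma, with a median log2 difference of -0.0089, beside -0.0039 over all RefSeq genes, and 0 of the 5 had an unadjusted p under 0.05. Nrxn2 and Nrxn3 encode neurexins, presynaptic receptors of Cbln1, and had RefSeq medians of 6.84 in high and 6.88 in low strains for Nrxn2, and of 3.18 in high and 3.27 in low strains for Nrxn3. Neo1, a netrin receptor related to the Cbln4 receptor Dcc, had medians of 10.58 in high and 10.57 in low strains. Adgrb3, an adhesion receptor for C1q-like proteins, was low in both groups, with medians of 2.14 and 1.98. Grid1, which encodes the delta glutamate receptor GluD1, had a median of 5.72 in high strains (5.33 to 6.33) and 5.66 in low strains (5.26 to 6.17), a log2 difference of 0.061 ± 0.136.

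Grid1 did differ between the progenitors. Its assembled gene on chromosome 16 had 6.31 to 6.45 in SHR animals and 4.95 to 5.21 in BN-Lx animals, a log2 difference of 1.31 ± 0.16 (adjusted p = 0.000129, limma). In the same table the high strains ran from 5.11 to 6.39 and the low strains from 5.08 to 6.28, so both groups of strains spanned much of the range between the progenitors. Apart from Cbln1 and Grid1, no cerebellin or partner described here passed between SHR and BN-Lx (adjusted p of 0.0519 or more), Cbln2 being nearest, with means of 2.53 ± 0.50 in SHR and 1.39 ± 0.39 in BN-Lx (SD, n = 4 each).

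**Figure D5:**
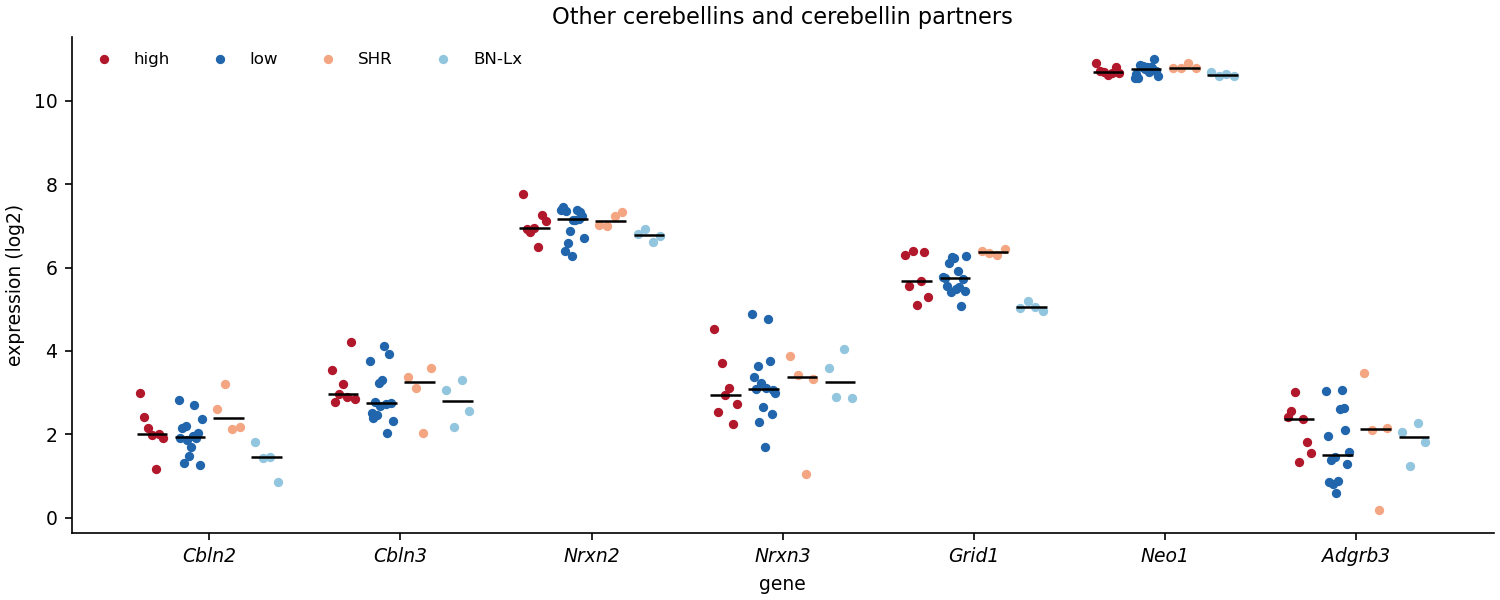
Expression (log2, assembled genes) of Cbln2, Cbln3 and 5 cerebellin receptors and partners in high strains, low strains, SHR and BN-Lx animals, each point 1 library and each bar the group median. Levels are not per length and are compared only within a gene; Grid1 separates SHR (6.31 to 6.45) from BN-Lx (4.95 to 5.21) but not high from low strains.

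Other lists of heart genes gave 0 called genes each with limma, beside 0.00524% called and 2.94% with an unadjusted p under 0.05 over all RefSeq genes. Among proteins related to cerebellin 1 or of like function, these were 20 measured genes of other secreted and matrix proteins with a C1q domain (median log2 difference -0.043, 0 with an unadjusted p under 0.05) and 23 other trans-synaptic organisers such as neuroligins (-0.043, 1, the neuroligin Nlgn3 at -0.20). Among genes of the heart's structure and work, they were 26 extracellular matrix genes (-0.075, 0), 16 sarcomere genes (-0.023, 1, the Z-disc protein Myoz2 at -0.17), 23 genes of calcium handling and ion channels (0.012, 2, the calcium buffer Casq2 at 0.14 and the sodium channel subunit Scn4b at 0.68), 20 of fatty acid oxidation (0.021, 1, the thiolase Acaa2 at 0.37) and 14 of the hypertrophy stress program (-0.022, 0). Among genes that respond to stress or time of day, they were 16 immediate early and heat shock genes (-0.023, 2, Nr4a1 at -0.44 and Fosb at -0.20), 15 clock genes (0.019, 2, Arntl at -0.21 and Npas2 at -0.17), 3 metallothioneins (0.016, 0) and 18 interferon response genes (0.041, 1, Ifit1). By sign, 22 extracellular matrix genes were below zero and 4 above, and 15 C1q domain genes below and 5 above. Fatty acid oxidation leaned the other way, with 14 genes above zero and 6 below. The members given by name and these 3 lists were picked after their values were seen, and none of the lists stood apart from the median over all RefSeq genes by as much as 0.1.

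Ifit1, an interferon-induced inhibitor of translation, had the widest difference in these lists. It ran from 6.29 to 9.68 in high strains (median 7.13) and from 7.21 to 10.31 in low strains (median 9.09), with a log2 difference of -1.63 ± 0.45 that did not pass (unadjusted p = 0.00163, adjusted p = 1.00, limma). The median of the high strains lay below the lowest low strain, while the highest high strain lay above the median of the low strains. The other 2 Ifit genes listed, Ifit2 and Ifit3, had differences of 0.056 and -0.025.

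The libraries carried the markers of ventricle. Myl2, the ventricular myosin light chain, had a median of 18.49 in high and 18.54 in low strains, while Myl7, its atrial counterpart, had 6.42 and 6.57, with a highest value of 8.44 in high and 7.87 in low strains. Summed levels of whole marker lists overlapped between the groups in all 12 lists. For the 9 neuron and nerve fibre markers measured, the summed log2 level ran from 7.90 to 8.73 in high strains (median 8.17) and from 8.04 to 8.79 in low strains (median 8.43), and for the 8 Schwann cell markers from 9.70 to 10.25 (median 9.84) and from 9.76 to 10.06 (median 9.88). Such a sum is weighted toward its most abundant members. Of the 9 neuron markers 4 were above zero and 5 below (median -0.0053). The widest difference among them was that of Nefh (-0.56), with medians of 4.95 in high and 6.78 in low strains. No marker of any list was called with limma. The lists whose median log2 difference was farthest from that of all RefSeq genes were the mesothelial and the lymphocyte markers. Of 6 mesothelial markers 5 were below zero and 1 above (median -0.18, 0 with an unadjusted p under 0.05), and their summed level ran from 9.68 to 10.67 in high strains (median 9.99) and from 9.65 to 10.49 in low strains (median 10.10). Of 9 lymphocyte markers 6 were above zero and 3 below (median 0.15), with Cd3e (0.20) and Ms4a1 (0.31) at an unadjusted p under 0.05, and their summed level ran from 10.40 to 10.97 in high strains (median 10.59) and from 10.16 to 10.85 in low strains (median 10.52). In the other 10 lists the median lay between -0.061 and 0.084, and the members with such a p were Tbx5 (-0.19) of 5 atrial markers, of which 3 were above zero and 2 below, and Cspg4 (-0.19) of 9 pericyte and smooth muscle markers, of which 2 were above zero and 7 below. Of 8 endothelial and of 8 macrophage markers, 7 were below zero and 1 above in each list. The part of such cells in the results was not tested. In bulk tissue, fewer cells of a type and less RNA per cell cannot be told apart. The mean spike-in level ran from 6.63 to 7.93 in high and from 6.72 to 7.73 in low strains, and every library correlated with the median library at 0.996 or more.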

How the data were processed

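Left ventricle RNA of 31 rat libraries was sequenced after ribosomal RNA depletion, with a stranded total RNA kit. Genome build rn7 is given in the submitters' notes on processing, beside the tools StringTie 1.3.5, RSEM 1.3.1, HISAT2 2.1.0, DESeq2, Bowtie2 2.3.4.3 and cutadapt 1.9.1. The authors deposited log2 expression values per gene, whose transformation is not given in the sources used here, and other values, the exon coordinates, in the deposited annotation. Read counts were not analysed here.

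Columns were matched to samples by their labels, and 5 columns of the repeat SHR libraries were not used. Spike-in rows (69 RefSeq, 70 assembled) were left out. The tables of RefSeq genes, assembled genes and Ensembl genes were fitted with limma 3.58.1 in R 4.3.3 (lmFit, eBayes with intensity trend, two-sided, Benjamini-Hochberg adjustment, threshold 0.05), with sequencing batch as covariate. Cbln1 stayed in the adjustment and was left out of the counts for the strains. P-values measure the spread between strains, or between animals for SHR and BN-Lx. The fit was tested on simulated data.

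RefSeq genes were placed by the rn7 annotation (14580), else through RefSeq's GRCr8 table by chromosome and neighbouring gene (88 on chromosome 19), else by its chromosome alone (3373). The other 1013 without a place and 45 with conflicting chromosomes were counted as elsewhere.

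Genes were named by a rule: at most 15 called within 20 Mb and 10 called elsewhere by p, the 5 nearest on each side, cerebellins and their partners, at most 2 called members of each other list and at most 5 called unnamed assembled genes. The strains, genes and lists were chosen with earlier results of these data known. One gene of the lists is not reported here. Alternatives are given in the closing section.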

Additional observations from a re-analysis of the deposited data

Results flagged for a closer look

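In groups of 4 to 10 libraries, the gap between an extreme library and its neighbour was compared with Dixon's 95% limit, which chance passes in about 1 in 20 groups. Of 40 groups of named genes, 4 passed. Among the high strains, Zfp423 was lowest in HXB17 (8.42), Phkb was lowest in BXH9 (10.88) and LOC120098554 was highest in BXH8 (1.98). Among SHR animals, PRN7.71G0236652 was lowest in replicate 3 (4.67). None of the called genes had such a library among the high strains.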

How the results depend on the processing

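Direction was reversed in 14 of 430 log2 differences computed under alternatives, all of them near zero and of genes that were never called. The count of assembled genes called near Cbln1 was 3 to 4 under the alternatives run. The replicate block left the SHR against BN-Lx difference of Cbln1 at 3.52 and gave 95 genes in place of 109 near it. Replicate numbers did not pair the animals (correlations of same-numbered deviations 0.19, -0.38, -0.17 and 0.15). With single progenitor animals left out, the Cbln1 difference was 3.22 to 3.71 and the count 75 to 105.

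RefSeq genes called numbered 2 in place of 1 without the batch term (1 elsewhere), and 2 (both near Cbln1) with a family term, with the spike-in level as a term, which was chosen after seeing the data, and with the Ensembl genes of the earlier data version, where they were PRN7.71G0236652's Ensembl gene and that of LOC291863. With the Cbln1 value as a continuous predictor 0 were called (adjusted p of LOC291863 0.143), and of assembled genes elsewhere also 0. Leaving out single strains gave 1 to 2 RefSeq genes, 1 within the window and 0 to 1 elsewhere (2 in all and 1 elsewhere without BXH13), and 3 to 4 assembled genes near Cbln1 (3 without BXH6) and 0 to 1 elsewhere (0 without BXH6, BXH8 or HXB31). Assembled genes elsewhere numbered 2 under quantile normalization and with the spike-in term, and 0 in batch 3 alone. Windows of 10 and 5 Mb and the other settings left these counts unchanged.

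Signs reversed for Tent4b (-0.0048, spike-in term), for Phkb (-0.0065 with the continuous predictor, -0.012 without the strains next to the limit, -0.019 with the spike-in term), for Cbln2 (-0.00072, batch 3 alone), for Nrxn2 (0.0092 without batch, 0.015 quantile, 0.017 continuous, 0.017 batch 3 alone, 0.041 spike-in term) and for Nrxn3 (0.030 continuous, 0.016 without the strains next to the limit, 0.020 batch 3 alone, 0.0050 spike-in term). The causes were not tested. With 1 animal per strain and no counts, small differences and low genes cannot be resolved.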

Other observations

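The widest progenitor difference on chromosome 19 belonged to PRN7.71G0236805, an assembled gene of 2 exons that carries the name Mylk3 and lies 1.79 Mb beyond Cbln1, between the genes described above. It ran from 9.66 to 10.28 in SHR animals and from 3.47 to 4.16 in BN-Lx animals. Among the 21 strains, 6 lay between 10.35 and 11.71 and 15 between 4.07 and 5.95, with nothing in between. The 6 included 3 high strains (HXB31, HXB17, HXB1) and 3 low strains (HXB24, HXB3, HXB13). All 6 were among the 12 HXB strains, and 0 of the 9 BXH strains were at the upper level. Only 14 of 21 strains were thus on the side of their Cbln1 group, although Cbln1 on one side of it and PRN7.71G0236850 on the other had 19 and 20. Those counts are not independent of the groups, which Cbln1 formed and by which PRN7.71G0236850 was called. PRN7.71G0236805 was picked out after its values were seen, and the difference between families was not tested.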
